A study of Mus musculus with 4 samples.

Results

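The CC chemokines and receptors followed here are 8 genes, chosen by symbol from the 53465 genes of the count table: the ligands Ccl2, Ccl3, Ccl4, Ccl5, Ccl6 and Ccl9, the signaling receptor Ccr1 and the atypical receptor Ccrl2. Each symbol matched 1 row. The cells were myeloid-derived suppressor cells (MDSCs), a mixed population of immature myeloid cells that expands when a tumor grows, isolated from the spleens of male BALB/c mice that were 6 weeks old when injected with 4T1 cells, a mammary carcinoma line. Mice were sacrificed on day 21 by the sample labels, whereas the study's methods give 2 weeks. Magnetic beads bound the cells through Gr-1, which Ly-6G and Ly-6C both carry. The sorted cells spent 6 h in culture, either in control medium (control replicates 1 and 2) or with EGCG, a green tea polyphenol, at 5 μg/mL (EGCG replicates 1 and 2). Whether replicates stem from separate mice is not given in the sources used here, so that p values measure the spread between these libraries, which may be technical.

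CC chemokines are small secreted proteins with a pair of adjacent cysteines, and they guide leukocytes through receptors that couple to inhibitory G proteins. Ccl2 attracts monocytes through Ccr2. Ccl3, Ccl4 and Ccl5 are inflammatory chemokines of macrophages and lymphocytes, and Ccl3 and Ccl5 act through Ccr1. Ccl6 and Ccl9 are rodent chemokines of myeloid cells that bind Ccr1, a receptor of neutrophils and monocytes. Ccrl2 resembles the CC receptors in sequence, but it does not signal and instead holds chemerin, the ligand of Cmklr1, at the cell surface.

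All 6 ligand genes lie on chromosome 11 of GRCm38. Ccl5 (ENSMUSG00000035042, 83525778 to 83530518), Ccl9 (ENSMUSG00000019122, 83572919 to 83578636), Ccl6 (ENSMUSG00000018927, 83587882 to 83593087) and Ccl3 (ENSMUSG00000000982, 83647844 to 83649355) are on the minus strand. Ccl4 (ENSMUSG00000018930, 83662584 to 83664683) follows on the plus strand, 13228 bases beyond Ccl3. Ccl9 and Ccl6 are direct neighbors, with 9245 bases between them. Ccl2 (ENSMUSG00000035385, 82035571 to 82037453, plus strand) lies 1488324 bases before Ccl5. Both receptor genes are on the minus strand of chromosome 9, Ccrl2 (ENSMUSG00000043953) from 111054486 to 111057519 and Ccr1 (ENSMUSG00000025804) from 123962124 to 123968692. No exon of the 8 genes overlapped an exon of another gene, so that the lack of strand information in the counting did not mix them with neighbors. Of the 31-base words in their transcripts, at most 3.98% (Ccl9) also occur in transcripts of other genes, and the words of Ccr1 that do (0.642%) are shared with Ccr3 and Ccr1l1.

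The start regions of Ccl6 and Ccl9 are shown first, because these neighboring genes were measured at very different levels per length, and that of Ccrl2 is shown for a match to a known motif. The windows run from 250 bases before to 50 bases after the transcription start (RefSeq, GRCm38.p6), and the RefSeq table held them for 5 of the 8 genes, namely Ccl3, Ccl6, Ccl9, Ccr1 and Ccrl2 (not Ccl2, Ccl4 or Ccl5). In the windows of Ccl6 (chr11:83593038-83593337, minus strand) and Ccl9 (chr11:83578587-83578886, minus strand), capitals mark the runs of at least 10 bases that both windows hold. In window 1 of Ccrl2 (chr9:111057469-111057768, minus strand), capitals mark the match to the NF-kB motif. All are written 5′ to 3′.
Ccl6: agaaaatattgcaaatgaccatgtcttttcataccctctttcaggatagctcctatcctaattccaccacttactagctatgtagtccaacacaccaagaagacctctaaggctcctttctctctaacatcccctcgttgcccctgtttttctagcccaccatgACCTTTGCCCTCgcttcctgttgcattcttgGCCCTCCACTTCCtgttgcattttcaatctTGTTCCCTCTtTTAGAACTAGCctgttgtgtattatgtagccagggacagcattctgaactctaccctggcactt
Ccl9: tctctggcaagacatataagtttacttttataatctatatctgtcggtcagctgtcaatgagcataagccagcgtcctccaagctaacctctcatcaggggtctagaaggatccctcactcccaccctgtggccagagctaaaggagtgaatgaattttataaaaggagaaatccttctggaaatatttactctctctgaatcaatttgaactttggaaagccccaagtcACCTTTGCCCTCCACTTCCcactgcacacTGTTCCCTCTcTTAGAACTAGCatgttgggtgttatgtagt
Ccrl2: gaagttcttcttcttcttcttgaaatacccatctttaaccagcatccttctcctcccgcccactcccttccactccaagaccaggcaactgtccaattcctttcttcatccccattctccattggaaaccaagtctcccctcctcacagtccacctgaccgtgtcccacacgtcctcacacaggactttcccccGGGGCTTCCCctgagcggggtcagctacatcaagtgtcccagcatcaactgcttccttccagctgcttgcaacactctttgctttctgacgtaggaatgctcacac
The shared runs covered 15.3% of the window of Ccl6 and 13.3% of that of Ccl9, with a longest run of 13 bases. No other pair among the 5 windows shared a run of 10 bases. Letters of 7 motifs were searched on both strands. The NF-kB motif and the ISRE of interferon-regulated genes are given by name. The AP-1 motif was searched as TGANTCA. For the C/EBP factors of myeloid cells the letters were TTGCNNAA. PU.1, a master regulator of myeloid cells, was searched as GAGGAAG. The letters TTCNNNGAA stood for STAT factors. The TATA box was searched as TATAAA. The NF-kB motif occurred in 2 of the 5 windows, counting window 1 of Ccrl2. It lay 56 bases before the start of Ccrl2 and 35 bases before that of Ccl9 (positions -56 and -35). Windows 2 and 3 of Ccrl2, which are not among the 5, held 0 matches to it. Of 32851 windows of the same length, 4.51% held the motif. The window of Ccl9 also held AP-1 (position -53, in 7.81% of all windows) and 3 TATA matches (in 13.6% of all windows), of which those at positions -94 and -92 overlap on opposite strands. The letters of C/EBP, PU.1, ISRE and STAT were not in any of the 5 windows. A match of letters is a description of the sequence and does not show that a factor binds there.

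Total counts were between 17767318 and 18390385 per library, and 14682 genes had enough counts to be tested. Libraries of a group were further apart than sampling noise allows, with a mean chi-square per gene of 6.85 between the control libraries and 6.64 between the EGCG libraries. Neutrophil genes were abundant in every library (Ly6g at 943 to 1200 CPM and S100a8 at 14461 to 22838 CPM), as were transcripts of monocytes and macrophages at lower levels (Ly6c2 at 120 to 158 CPM and Adgre1 at 170 to 228 CPM). The 8 monocyte markers, none at 0 in all libraries, summed to 1659 and 1446 CPM with control medium and to 1252 and 1308 CPM with EGCG. Of these 8, 7 were lower with EGCG, against 49.4% of all tested genes, and Ly6c2 was higher. The 7 include the CC receptor Ccr2, with a log2 fold change of only -0.0021, and without it 6 of 7 markers were lower. Vcan fell (log2 fold change of -0.50, adjusted p of 0.0245 by edgeR, a call that is lost without the filter on low counts). The part of monocytes in the values of the 8 CC genes was not tested. Genes of basophils (Mcpt8 at 79.2 to 93.8 CPM) and T cells (Cd3e at 2.35 to 3.14 CPM) were also detected. So were those of eosinophils (5 markers with sums of 834 to 1174 CPM) and B cells (5 markers with sums of 349 to 397 CPM). The chemokine counts can thus come from more than 1 cell type. All 5 endothelial markers were lower with EGCG, with sums of 115 and 127 CPM against 94.6 and 99.4 CPM (Cdh5 6.90 and 6.38 against 3.25 and 4.03 CPM), and none was called or at 0 in all libraries. The 5 markers of tumor epithelium, of which Krt14 was at 0, summed to 26.7 and 24.3 CPM with control medium and to 22.7 and 25.9 CPM with EGCG, and went both ways (Epcam 3.56 and 3.30 against 5.07 and 5.54 CPM, Cdh1 22.0 and 20.5 against 16.2 and 19.3 CPM). The part of such cells in the values below was not tested. In such bulk samples, fewer cells of a type and less RNA per cell cannot be told apart. CPM here means counts per 1e6 reads, with TMM factors applied.

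The 8 genes together took 0.148% to 0.165% of all counts, and between 81.9% and 85.7% of the counts of the whole CC ligand and receptor family. All 8 passed the filter on low counts. To compare genes with each other, CPM were divided by exonic length in kilobases. On this scale Ccl6 was the highest, with a mean of 410 over the 4 libraries (355 to 464), and it stood above every other gene of the 8 in each library. Ccr1 (131, from 121 to 144) and Ccl3 (128, from 116 to 148) came next and could not be ordered, since each was the higher in 2 of 4 libraries. Ccrl2 followed with 65.9 (58.4 to 72.3). Ccl9 (52.7, from 50.2 to 55.2) and Ccl4 (46.9, from 43.2 to 57.0) overlapped in their ranges, with Ccl9 the higher in 3 of 4 libraries. Ccl2 (13.2, from 11.8 to 14.2) and Ccl5 (5.22, from 4.37 to 6.77) were the lowest, each separated from its neighbors in the order. Among the 6 ligands, Ccl6 made up 59.2% to 67.2% of the summed level per length, and Ccl3 16.9% to 21.8%. In CPM, Ccl6 lay at the 98.9th percentile of the tested genes and Ccr1 at the 97.0th, whereas Ccl5 lay at the 33.0th. The exonic length counts every annotated exon once (3045 bases for Ccl9 and 1795 bases for Ccl6), whether or not it was used in these cells.

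**Figure D1:**
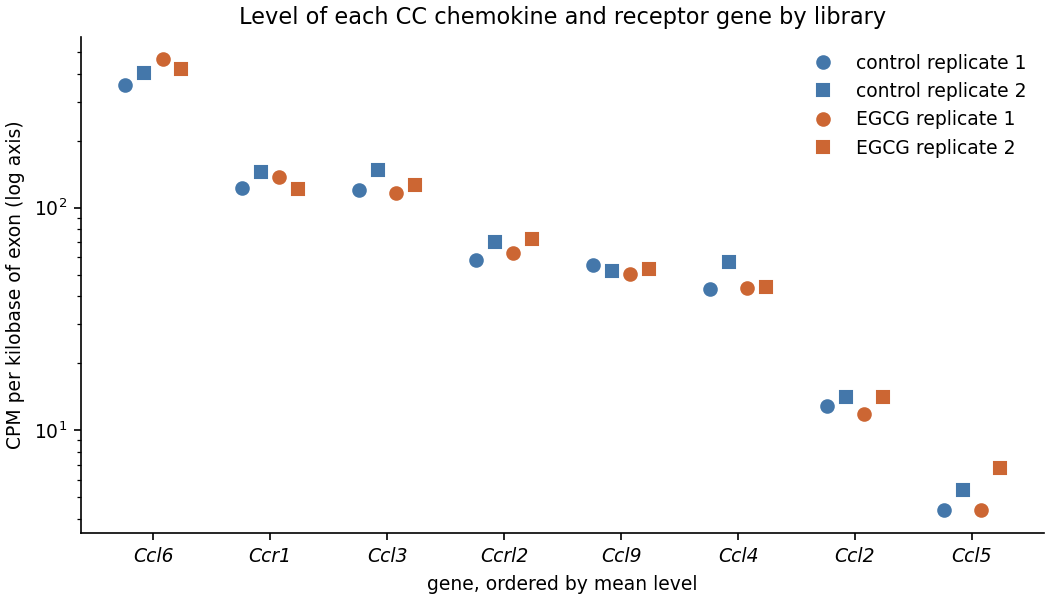
CPM per kilobase of exon (log axis) of the 8 genes in the 2 control libraries (blue) and the 2 EGCG libraries (orange), with circles for replicate 1 and squares for replicate 2, ordered by mean level. The distance between genes, from 410 for Ccl6 to 5.22 for Ccl5, is far larger than the distance between libraries of 1 gene.

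The question of the comparison was which genes EGCG changed in these cells. None of the 8 genes (0 of 8) reached an adjusted p under 0.05 by the quasi-likelihood test of edgeR (adjusted over the whole table after Benjamini-Hochberg), against 0.15% of all tested genes (0.136% lower and 0.0136% higher). Their adjusted p values ran from 0.323 to 0.914. At an unadjusted p under 0.05 there was 1 of the 8, Ccl6, against 12.2% of all tested genes (7.02% lower and 5.22% higher), and DESeq2 called 0 of the 6 genes to which it gave an adjusted p (not Ccl2 and Ccl5). The unadjusted count was 3 of 8 with the length correction, both without and with the replicate block (Ccl3, Ccl4 and Ccl6), against 10.6% and 11.4% of all genes tested in these settings. Which of the 8 genes had an unadjusted p under 0.05 also changed with the library left out. With a library left out, 1 group holds a single library that is assumed to vary like the other group, which alone supplies the spread between replicates. The p values of such fits, where given below, show how far a value rests on 1 library and are not evidence of a change. Expression was lower with EGCG for 5 genes and higher for 3, against 49.4% lower and 50.6% higher among all tested genes, with a median log2 fold change of -0.05 beside 0.0032 for all tested genes. The median size of the log2 fold change was 0.11 in the 8 genes and 0.13 in all tested genes. Only Ccl6 of the 8 genes (1 of 8) had groups that did not overlap, against 42.7% of all tested genes (21.2% with EGCG lower and 21.5% with EGCG higher). The 95% intervals of the 8 fold changes all lay between 0.73-fold and 1.6-fold, so changes beyond these sizes are outside the intervals of this test.

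Among the ligands of Ccr1, Ccl6 was at 638 and 721 CPM in control replicates 1 and 2 and at 834 and 753 CPM in EGCG replicates 1 and 2. Both EGCG libraries were above both control libraries, although EGCG replicate 2 was closer to control replicate 2 than to EGCG replicate 1. The control group had a mean of 680 ± 58.8 CPM (SD, n = 2), and the EGCG treatment group had a mean of 793 ± 57.0 CPM (SD, n = 2). The log2 fold change of Ccl6 was 0.22 with a standard error of 0.09 (95% interval from 0.04 to 0.41), an unadjusted p of 0.0209 and an adjusted p of 0.323 by edgeR. The highest adjusted p of Ccl6 was 0.894 (without control replicate 1) and the lowest 0.0702 (without control replicate 2), with log2 fold changes of 0.14 and 0.32.
Among 13 neutrophil markers, 1 had the library order of Ccl6, S100a8 (14461 and 18163 CPM with control medium, 22838 and 19477 CPM with EGCG), and the other markers had other orders. The 13 neutrophil markers summed to 62473 and 73966 CPM with control medium and to 82916 and 73710 CPM with EGCG, and 9 of the 13 were higher with EGCG. In every library S100a8 and S100a9 (22455 to 31668 CPM) together made up most of this sum. No marker of the 13 was at 0 in all libraries. Against that sum, Ccl6 was at 1.02% and 0.975% in the control libraries and at 1.01% and 1.02% in the EGCG libraries, a ratio computed after the values were seen. Relative to Csf3r, the receptor of the neutrophil growth factor G-CSF, it was at 17.9% and 19.7% in the control libraries and at 23.0% and 20.7% in the EGCG libraries. Relative to S100a8 it was at 4.41% and 3.97% with control medium and at 3.65% and 3.87% with EGCG. Relative to Ly6g it was at 67.6% and 66.2% against 69.5% and 78.0%, and relative to S100a9 at 2.84% and 2.55% against 2.63% and 2.79%. The ratio thus depended on the marker chosen: with EGCG it was higher relative to Csf3r and Ly6g, lower relative to S100a8, and overlapping between groups relative to S100a9 and the sum. The part of neutrophil content in its values was not tested.

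Ccl9, the neighbor of Ccl6, did not share this pattern. It was at 168 and 158 CPM in the control libraries and at 153 and 162 CPM with EGCG. The groups overlapped, and its log2 fold change was -0.05 (standard error 0.08, 95% interval from -0.21 to 0.11, adjusted p of 0.843 by edgeR), the narrowest interval of the 8 genes. The counts of Ccl6 divided by those of Ccl9, a ratio that does not depend on library scaling, were 3.80 and 4.55 with control medium and 5.45 and 4.64 with EGCG. Both EGCG ratios were above both control ratios, but those of control replicate 2 and EGCG replicate 2 were close. No test of this ratio was made. With 2 libraries against 2, an exact permutation test cannot fall below a two-sided p of 0.333.

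Ccl3 and Ccl4 stand next to each other on opposite strands. Ccl3 was at 92.0 and 113 CPM in the control libraries and at 89.2 and 96.6 CPM in the EGCG libraries. Ccl4 was at 28.5 and 37.6 CPM in the control libraries and at 28.8 and 28.9 CPM in the EGCG libraries. Control replicate 2 was the highest library for both genes, and the other 3 libraries were close together but in a different order for each gene. The log2 fold change was -0.14 for Ccl3 (standard error 0.10, 95% interval from -0.35 to 0.06, adjusted p of 0.590) and -0.20 for Ccl4 (standard error 0.12, 95% interval from -0.45 to 0.06, adjusted p of 0.558), both by edgeR. These differences rested on control replicate 2: without it the log2 fold changes were 0.016 and 0.019, whereas without control replicate 1 they were -0.28 and -0.38. The counts of Ccl3 were 3.22 and 3.02 times those of Ccl4 with control medium, and 3.10 and 3.34 times with EGCG.

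Ccl2, the monocyte attractant, was at 14.7 and 16.0 CPM in the control libraries and at 13.5 and 16.1 CPM in the EGCG libraries, and the groups overlapped. For Ccl2 the log2 fold change was -0.05 (standard error 0.13, 95% interval from -0.33 to 0.23, adjusted p of 0.914 by edgeR). Ccl5, which T cells, NK cells and platelets also make, had the fewest reads, with counts of 77 and 92 with control medium and 76 and 116 with EGCG. The exact 95% Poisson intervals, which cover counting error only, ran from 60.8 to 96.2 for the count of 77 and from 95.9 to 139.1 for the count of 116. In CPM these were 4.22 and 5.15 against 4.19 and 6.49, so that EGCG replicate 1 was the lowest library of the 4 and EGCG replicate 2 the highest. The log2 fold change of Ccl5 was 0.19 with a standard error of 0.23 (95% interval from -0.30 to 0.68, adjusted p of 0.794 by edgeR), and it became -0.16 without EGCG replicate 2 and 0.475 without EGCG replicate 1. The replicates of the EGCG treatment group thus differed from each other more than the groups did, by 0.63 on the log2 scale. The 7 T cell markers summed to 99.7 and 113 CPM with control medium and to 114 and 119 CPM with EGCG, most of it from Cd3d (75.2 to 90.2 CPM), while Cd3e was at 2.35 to 3.14 CPM. The sum of the 7 NK cell markers ranged from 16.3 to 17.2 CPM in the control group and from 16.7 to 19.4 CPM in the EGCG treatment group, and that of the 5 platelet markers from 38.7 to 43.6 CPM and from 34.2 to 35.4 CPM. No marker of the 3 lists was at 0 in all libraries, and the part of these cells in the values of Ccl5 was not tested.

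Ccr1, the receptor shared by Ccl3, Ccl5, Ccl6 and Ccl9, was the second most abundant of the 8 genes in CPM. It was at 347 and 409 CPM in the control libraries and at 388 and 343 CPM in the EGCG libraries. The EGCG values fell around those of the control group, with EGCG replicate 2 the lowest and control replicate 2 the highest. The log2 fold change was -0.05 (standard error 0.09, 95% interval from -0.25 to 0.15, adjusted p of 0.875 by edgeR). Ccrl2, which holds chemerin without signaling, was at 152 and 183 CPM in the control libraries and at 162 and 188 CPM in the EGCG libraries. In each group replicate 2 was the higher library, by 0.27 with control medium and 0.21 with EGCG on the log2 scale, and the groups overlapped. The log2 fold change of Ccrl2 was 0.06 (standard error 0.10, 95% interval from -0.14 to 0.27, adjusted p of 0.843 by edgeR).

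**Figure D2:**
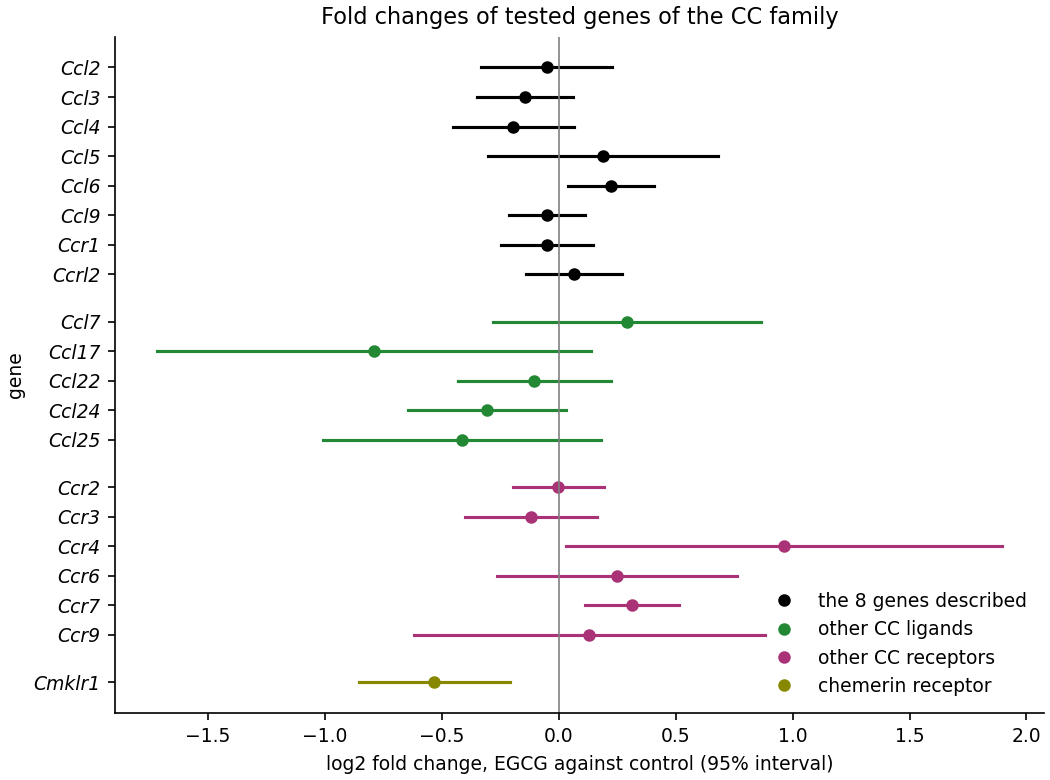
Log2 fold change of EGCG against control (points) with its 95% interval from edgeR (lines) for the 8 genes (black), the other CC ligands tested (green), other tested CC receptors (purple) and the chemerin receptor Cmklr1 (olive). Of the 8 genes, the interval of Ccl6 (0.04 to 0.41) lies on 1 side of 0, before adjustment for the number of genes, and the other 7 intervals include 0.

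**Figure D3:**
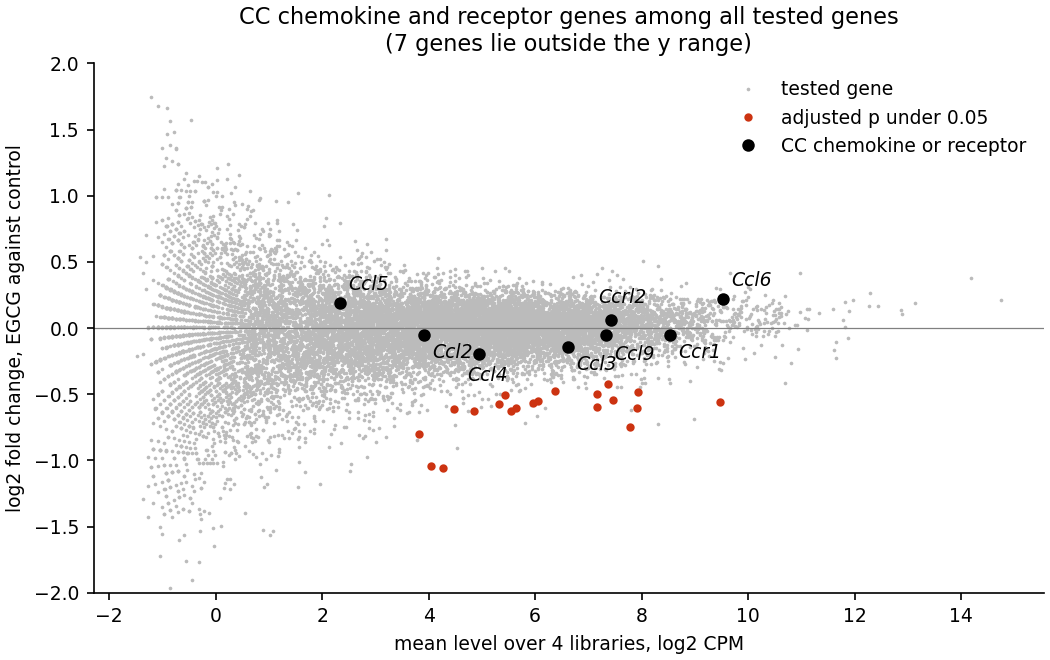
Log2 fold change of EGCG against control by mean level (log2 CPM over 4 libraries) for all 14682 tested genes (grey), genes with an adjusted p under 0.05 (red) and the 8 CC genes (black, named). Outside the y range lie 7 genes, among them both genes called higher. The 8 genes span low to high levels and lie within the grey cloud, between -0.20 for Ccl4 and 0.22 for Ccl6.

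Of 18 other CC ligands listed, 9 had no count in any library, 4 had too few counts to be tested and 5 were tested, of which 0 had an adjusted p under 0.05. Ccl24, an eosinophil attractant that acts through Ccr3, was the most abundant of them and, per length, level with Ccl9 (51.6 beside 52.7). It was at 88.5 and 59.3 CPM in the control libraries and at 50.7 and 68.8 CPM in the EGCG libraries. For Ccl24 the log2 fold change was -0.31 (standard error 0.16, adjusted p of 0.461 by edgeR), and control replicate 1 was the library that stood out. Without that library the log2 fold change of Ccl24 was 0.013, and without EGCG replicate 1 it was -0.10. It was -0.57 when control replicate 2 was omitted and -0.54 when EGCG replicate 2 was omitted (each with 1 library in a group). Ccl22 (9.54 to 12.4 CPM), Ccl7 (2.46 to 4.14 CPM), Ccl25 (1.74 to 2.52 CPM) and Ccl17 (0.448 to 1.34 CPM) were low, with log2 fold changes of -0.11, 0.29, -0.41 and -0.79 and standard errors of 0.15, 0.27, 0.28 and 0.43. The median log2 fold change of the 5 ligands was -0.31, beside 0.0032 for all tested genes. It is the value of Ccl24, which rests on control replicate 1 and in part on EGCG replicate 1.

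Of 13 other CC receptors and atypical receptors, 7 were tested, and 0 had an adjusted p under 0.05. Ccr2, the receptor of Ccl2 on monocytes, was at 129 and 116 CPM in the control libraries and at 132 and 112 CPM in the EGCG libraries, with a log2 fold change of -0.0021 (95% interval from -0.20 to 0.19). By counts, Ccr1 stood 2.70 to 3.54 times above Ccr2 in the same library, and per length the means were 131 and 18.1. Ccr7, which guides cells to lymph nodes, was at 35.8 and 35.3 CPM in the control libraries and at 41.8 and 46.6 CPM in the EGCG libraries. Both EGCG libraries were the higher, and the log2 fold change of Ccr7 was 0.31 (standard error 0.09, unadjusted p of 0.00478, adjusted p of 0.218 by edgeR). Ccr4 had counts of 9 and 12 with control medium and 24 and 17 with EGCG (log2 fold change of 0.96, standard error 0.43, adjusted p of 0.4 by edgeR). Ccr3 (11.7 to 13.9 CPM), Ccr6 (2.69 to 4.09 CPM) and Ccr9 (1.15 to 1.88 CPM) had log2 fold changes of -0.12, 0.25 and 0.13 with standard errors of 0.13, 0.24 and 0.35. The eosinophil marker Siglecf, measured because eosinophils carry Ccr3, was at 32.1 and 30.6 CPM with control medium and at 29.1 and 26.3 CPM with EGCG, and the 4 eosinophil markers other than Ccr3 itself were lower with EGCG (median log2 fold change of -0.23). Their part in the values of Ccr3 was not tested.

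For the partners of Ccrl2, the chemerin gene Rarres2 had 3 or 4 counts per library and Gpr1 had none. Cmklr1, the signaling receptor of chemerin, was at 44.1 and 32.1 CPM in the control libraries and at 22.5 and 30.2 CPM in the EGCG libraries. The EGCG libraries were both below the control libraries, though control replicate 2 and EGCG replicate 2 were close. Its log2 fold change was -0.53 (standard error 0.15, unadjusted p of 0.0033, adjusted p of 0.188 by edgeR). With 1 library in a group, the adjusted p of Cmklr1 was 0.000337 without control replicate 2, 4.01e-05 without EGCG replicate 2 and 0.745 without control replicate 1, with log2 fold changes of -0.74, -0.76 and -0.28. Ccrl2 and Cmklr1 therefore differed in their measured values, 0.06 against -0.53, but this difference between genes was not tested. Of 10 macrophage markers, none at 0 in all libraries, 8 were lower with EGCG (median log2 fold change of -0.23), Adgre1 among them with 196 and 228 CPM against 181 and 170 CPM. Their sum was at 1232 and 1297 CPM with control medium and at 1202 and 1302 CPM with EGCG. The largest part of it came from Slc40a1, a marker that was higher with EGCG (562 and 625 CPM against 668 and 696 CPM). The sum therefore does not show the direction of the 8 lower markers. The part of macrophages in the values of Cmklr1 was not tested.

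Downstream of the receptors, 35 signaling genes were tested, with a median log2 fold change of 0.05, and edgeR gave 0 calls after adjustment. Before adjustment, 2 of the 35 were lower and 2 higher with a p under 0.05, against 7.02% lower and 5.22% higher among all tested genes, so the count is near that background. The lower ones were Plcb2, a phospholipase C activated by G protein subunits, and Tiam1, an exchange factor of Rac, both with a log2 fold change of -0.25 (standard errors of 0.08, adjusted p of 0.259 and 0.228 by edgeR). The higher ones were Gng5, a G protein gamma subunit (0.22), and Rap1b, a small GTPase of integrin activation (0.21), with standard errors of 0.08 and adjusted p values of 0.305 and 0.320 by edgeR. In the 13 genes of receptor desensitization and RGS proteins, 0 had an adjusted p under 0.05 and the median log2 fold change was 0.06. Grk3, a kinase that phosphorylates activated G protein-coupled receptors, was at 44.4 and 31.4 CPM in the control libraries and at 23.1 and 27.2 CPM in the EGCG libraries (log2 fold change of -0.59, standard error 0.14, unadjusted p of 0.00091, adjusted p of 0.12 by edgeR). Its adjusted p was 0.0464 by DESeq2 and 0.0218 with library size only, and leaving out a library, with 1 library then in a group, moved it between 2.81e-05 (control replicate 2 omitted) and 0.582 (control replicate 1 omitted), with log2 fold changes of -0.82 and -0.32. Rgs1, which shortens G protein signals, was at 54.3 and 59.5 CPM with control medium and at 41.6 and 60.9 CPM with EGCG, with overlapping groups (log2 fold change of -0.15, adjusted p of 0.7 by edgeR). It is named after its values were seen, because leaving out EGCG replicate 2, which leaves a single EGCG library, gave it an adjusted p of 0.0256 and a log2 fold change of -0.45.

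The fold changes of the 8 CC genes moved less with the filter, scaling, test, length correction or replicate block than with the libraries included. Under these processing settings the lowest log2 fold change was -0.09 for Ccl2, -0.09 for Ccl9 and -0.08 for Ccr1 (each -0.05 with the main settings). That of Ccrl2 went from 0.06 down to 0.03. Among 88 values under such settings, all kept their direction. Of 32 values with a library left out, 9 changed sign, and 0 had an adjusted p under 0.05. Ccl6 and Ccl9 kept their sign in each of these settings. EGCG was the lower condition for 5 of the 8 genes with all libraries, and for 1 of the 8 (Ccl9) without control replicate 2.

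**Figure D4:**
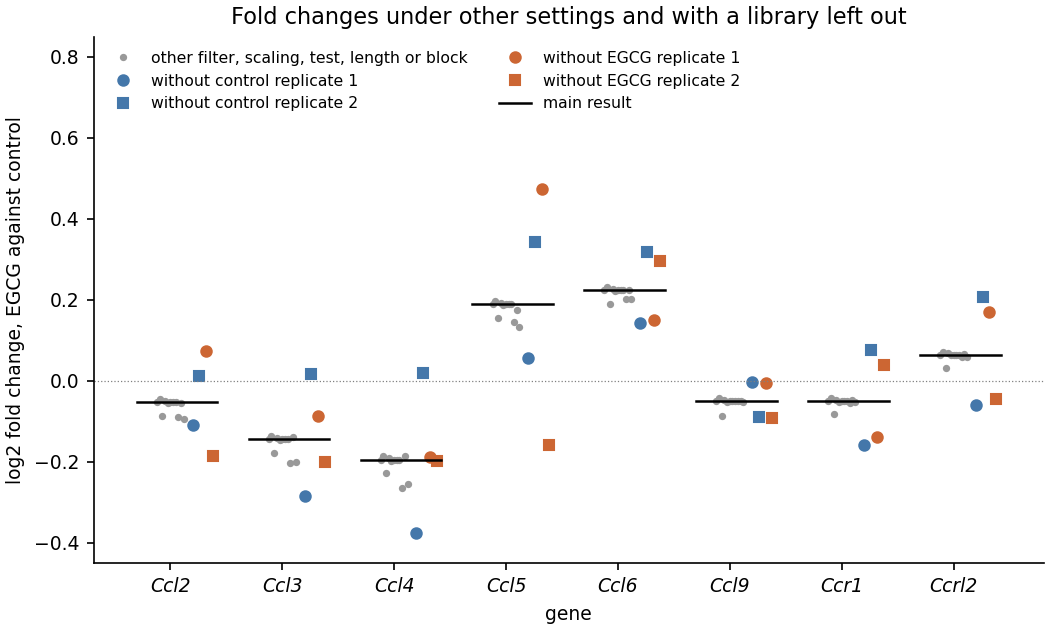
Log2 fold change of EGCG against control for the 8 genes, with all libraries (black lines), under the 11 other settings (grey points) and with 1 library left out (blue for a control library, orange for an EGCG library, circles for replicate 1 and squares for replicate 2). The grey points stay close to the black lines, whereas Ccl5 runs from -0.16 to 0.475 with a library left out and Ccl6 stays above 0, from 0.14 to 0.32.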

How the data were processed

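RNA-seq was made from 4 libraries, 2 control and 2 EGCG, grouped by their labels. The authors aligned the reads with STAR 2.6.0c to GRCm38, counted them with featureCounts 1.6.2 on Ensembl release 91 without strand, and deposited whole-number counts per gene, not normalized. There were 0 columns of other samples.

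From the deposited counts, genes with few reads were dropped by filterByExpr (minimum count 10). TMM factors set the effective depth, and the groups were tested in edgeR 4.0.16 (EGCG over control, R 4.3.3, two-sided quasi-likelihood test in its legacy form, Benjamini-Hochberg adjustment over 14682 genes, threshold 0.05). The standard error is the size of the log2 fold change divided by the square root of F, and the 95% interval uses the test's degrees of freedom. The procedure was first tested on simulated counts. Exonic lengths and positions were taken from GENCODE M21 (GRCm38), where 53360 of the 53465 genes matched. Short genes had higher fold changes (median log2 of 0.11 up to 1000 bases and -0.05 above 4000 bases), so a length correction in each library (loess, span of 0.4) was an alternative, beside other filters, scalings and tests, DESeq2 1.42.0, a replicate block and leaving out each library.

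The members and lists were chosen with earlier results of these data known. The text names the 8 genes, every tested gene of the CC and chemerin lists, signaling genes with an unadjusted p under 0.05 and defining cell markers. Some genes under this rule are not reported here, though counts over lists include them. Genes of like pattern were not named, since no member was called.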

Additional observations from a re-analysis of the deposited data

How the results depend on the processing

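None of the 8 CC genes had an adjusted p under 0.05 in the 11 other settings or with a library left out (DESeq2 gave none for Ccl2 and Ccl5), and the lowest adjusted p was 0.0702 (Ccl6, without control replicate 2). Leaving out a library moved the log2 fold change from -0.19 to 0.075 for Ccl2, from -0.28 to 0.016 for Ccl3, from -0.38 to 0.019 for Ccl4, from -0.16 to 0.475 for Ccl5, from -0.16 to 0.075 for Ccr1 and from -0.059 to 0.21 for Ccrl2, so that these genes changed sign. Over the 8 genes, between 1 and 6 were lower and between 2 and 7 higher. The length correction moved Ccl3 to -0.20 and Ccl4 to -0.26.

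Counts over all genes depended more on the settings (20 lower and 2 higher with the main settings). They were 9 lower with upper-quartile scaling, 135 lower and 16 higher with library size only, 0 and 0 without a filter (where 1795 genes had an unadjusted p under 0.05), 49 and 14 with the robust test, 54 and 14 with DESeq2, and 3 lower with the length correction. There was 1 higher gene with at least 1 CPM in 2 libraries, and there were 6 higher genes with the newer form of the test. With a library left out, which leaves 1 library in a group, assumed to vary like the other group, 72 to 235 were lower and 5 to 119 higher. The causes were not tested.

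The labels number the replicates 1 and 2 in both groups, but the deviations of same-numbered libraries did not go together (correlation of 0.0336 across genes). The replicate block gave 6 higher genes, and the block with the length correction 5 lower genes. With the block, no call among the 8 genes changed. Depth limits Ccl5 most, where counting error alone is 11.5% of the lowest count.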
